A study of Mus musculus with 108 samples.

Results

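The genes described here are a list of 42 mouse genes that carry out or mark solute and water transport along the kidney tubule. This list and the further gene lists were chosen with earlier results of these data known. Shares of them called are therefore descriptions and not independent evidence. The 42 genes were measured in whole kidney of 6 inbred strains, with liver and lung added where the gene was bright. Of the 42, 41 had a probe set assigned to that gene alone, out of 18193 such genes on the array, and each was read from its brightest probe set over all arrays of the series. The exception was Trpv5, the calcium channel of the distal nephron, which was not analysed here.

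The study set gene expression beside copy number variation among inbred mice, with Affymetrix arrays of 6 whole tissues. All animals were males of 11 to 14 weeks. AKR/J, C3HeB/FeJ, C57BL/6J, DBA2/J and A/J mice came from one supplier and 129S2 mice from another. For 129S2, strain and supplier therefore cannot be told apart. Each strain and tissue had 3 arrays, so kidney, liver and lung had 18 arrays each. Values are log2 signals, in which a difference of 1 is a 2-fold change. The number of arrays limits the precision.

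The kidney tubule recovers most of what the glomerulus filters. The proximal tubule takes back glucose, phosphate, amino acids, bicarbonate and water and secretes organic anions and cations. The thick ascending limb takes up sodium, potassium and chloride together, the distal convoluted and connecting tubule handles sodium, magnesium and calcium, and the collecting duct sets the final water and sodium content of urine through aquaporins and the epithelial sodium channel.

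The kidney arrays carried the signature of the tissue. Among the 41 genes, 36 had their highest tissue mean in kidney, 38 averaged at least 8 there and 16 at least 12. Umod, which encodes uromodulin of the thick ascending limb, averaged 13.98 in kidney and at most 3.73 in any other tissue. The exceptions were Aqp1, Trpm6, Scnn1a, Scnn1b and Scnn1g, all of which were highest in lung; with every array centred on its own median, Aqp1 became higher in kidney by 0.51 and Slco1a1 lower in kidney than in liver by 0.24. Slc7a12, a member of the amino acid carrier family, was the dimmest at 5.94. Array medians spanned 5.792 to 5.895 in kidney, 4.953 to 5.005 in liver and 6.8 to 6.832 in lung, so levels set across tissues depend on scaling. The correlation between kidney replicates was at least 0.9958. Each of the 18 kidney arrays was most like an array of its own strain. One lung array, C3HeB/FeJ replicate 3, stood apart: its mean over 5 skeletal muscle genes was 10.85, against at most 6.75 on the other lung arrays, and its mean over 4 adipose genes was 8.93, against at most 7.84. Where leaving it out changed a lung call or the leading strain, the value without it is given. One 129S2 kidney array, numbered 4 in its title, carries the individual number 3 in another label.

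Strain differences were common among these genes. A moderated F test over the 6 strains (limma, Benjamini-Hochberg adjustment over all genes, threshold 0.05) called 39 of the 41 in kidney, a share of 95.1%, where 46.1% of all 18193 genes were called. Bright genes are called more often: of genes averaging at least 8 in kidney, 68.3% passed, against 37 of the 38 transport genes at that level, or 97.4%. The median distance between the highest and the lowest strain mean was 0.60 for the transport genes and 0.28 over all genes; among genes averaging at least 8, it was 0.57 and 0.32. The 2 that did not pass were Slc7a12, with an adjusted p of 0.179, and Lrp2, which encodes the endocytic receptor megalin, with a distance of 0.20 and an adjusted p of 0.069. Fewer cells of a type and less RNA per cell cannot be told apart in whole kidney, and sequence differences between strains under the probes were not tested.

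Most of the differences were modest, and 8 of the 41 genes both passed and had strain means at least 1 log2 unit apart, where 5.07% of all genes did so. They were Slc22a7, Slco1a1, Slc26a4, Calb1, Slc22a8, Slc7a8, Slc6a19 and Slc5a12. No single strain was highest for all: DBA2/J led for Slc22a7 and Slco1a1, A/J for Slc26a4, Slc6a19 and Slc5a12, C57BL/6J for Calb1 and Slc7a8, and 129S2 for Slc22a8.

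**Figure D1:**
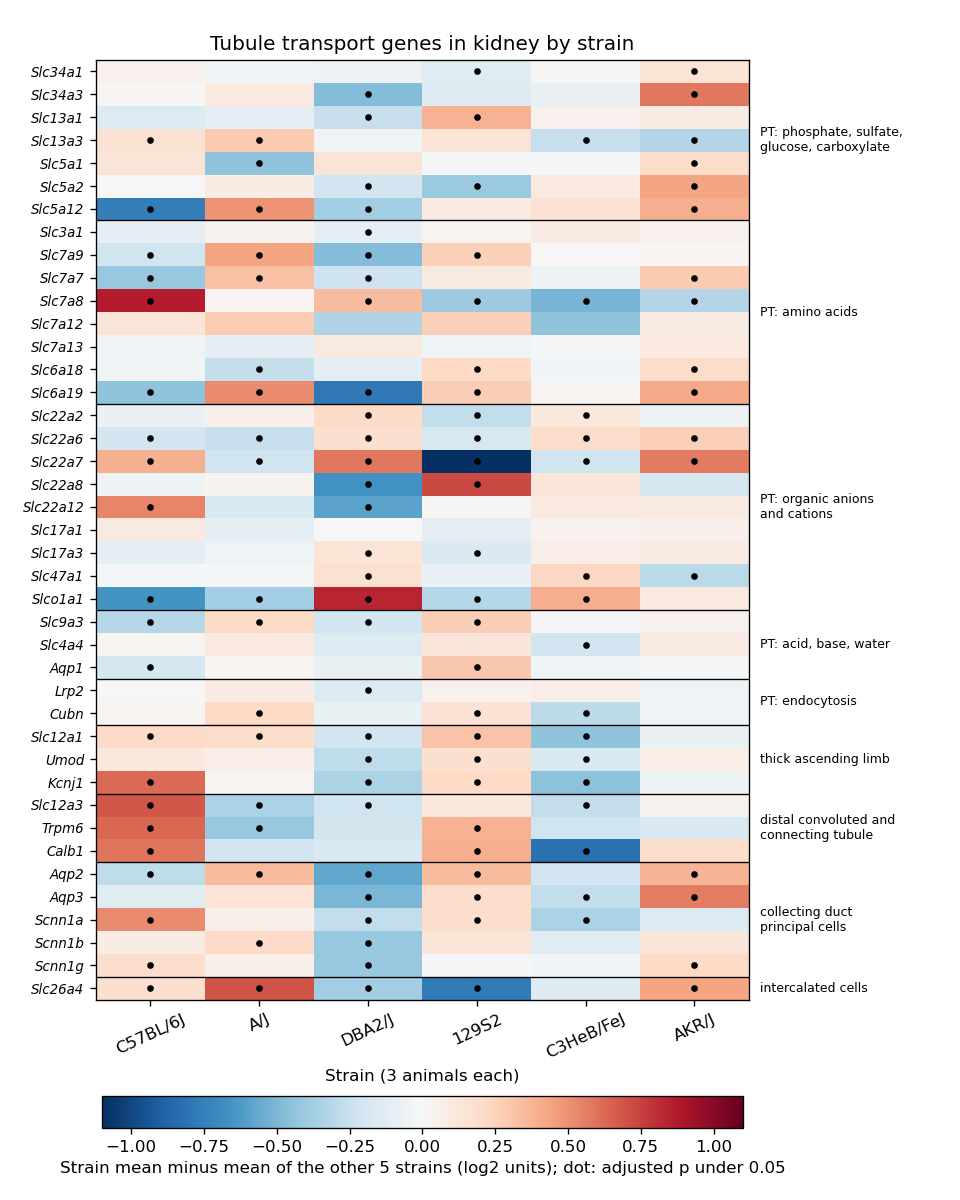
Heat map of 41 tubule transport genes (rows, grouped by nephron segment, where PT is proximal tubule) in kidney of 6 strains (columns, 3 animals each by title). Colour is the strain mean minus the mean of the other 5 strains in log2 units, and a dot marks an adjusted p under 0.05; in the DBA2/J column all 5 collecting duct genes are blue and 6 of the 9 organic ion carriers are red and dotted.

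The promoters of Slc22a8, Slco1a1, Slc6a19, Slc7a8 and Slc26a4 are shown. The first 4 are proximal carriers, a class that includes genes driven by HNF1 factors and, in male mouse kidney, genes that respond to androgen, and Slc26a4 of intercalated cells stands beside them. They are the 250 bases before the annotated start in the RefSeq reference, build GRCm38.p6, read 5′ to 3′ on the gene's strand, and come from the reference, not from the strains. Capitals mark GTTAAT, a half-site of HNF1, and TGTTCT, a half-site of the androgen receptor, each searched on both strands. Slc22a8 lies at chr19:8592932-8593181 on the plus strand, Slco1a1 at chr6:141946963-141947212, Slc6a19 at chr13:73692637-73692886, Slc7a8 at chr14:54781887-54782136 and Slc26a4 at chr12:31559985-31560234, the last 4 on the minus strand.
Slc22a8: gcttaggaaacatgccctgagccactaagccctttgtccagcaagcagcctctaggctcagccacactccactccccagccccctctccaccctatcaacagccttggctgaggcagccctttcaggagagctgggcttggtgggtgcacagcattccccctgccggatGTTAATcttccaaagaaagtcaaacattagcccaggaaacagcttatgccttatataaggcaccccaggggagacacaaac
Slco1a1: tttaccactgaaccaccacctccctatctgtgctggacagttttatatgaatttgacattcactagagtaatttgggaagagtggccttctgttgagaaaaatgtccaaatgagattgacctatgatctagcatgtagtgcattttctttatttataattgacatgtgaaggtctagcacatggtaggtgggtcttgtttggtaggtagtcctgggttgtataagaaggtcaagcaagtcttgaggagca
Slc6a19: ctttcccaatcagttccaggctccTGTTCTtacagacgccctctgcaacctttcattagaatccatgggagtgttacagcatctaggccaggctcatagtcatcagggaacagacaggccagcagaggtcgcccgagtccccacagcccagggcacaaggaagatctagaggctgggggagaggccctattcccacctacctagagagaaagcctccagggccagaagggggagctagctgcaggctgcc
Slc7a8: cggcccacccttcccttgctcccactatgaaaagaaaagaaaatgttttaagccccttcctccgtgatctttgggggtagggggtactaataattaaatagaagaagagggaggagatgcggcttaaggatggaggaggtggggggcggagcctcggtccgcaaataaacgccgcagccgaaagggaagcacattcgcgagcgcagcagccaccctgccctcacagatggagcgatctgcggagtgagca
Slc26a4: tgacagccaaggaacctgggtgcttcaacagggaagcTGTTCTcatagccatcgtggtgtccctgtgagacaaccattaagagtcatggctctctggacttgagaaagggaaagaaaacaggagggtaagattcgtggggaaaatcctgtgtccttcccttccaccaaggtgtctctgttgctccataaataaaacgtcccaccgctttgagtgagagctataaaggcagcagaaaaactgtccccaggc
Of 31 transport genes with a promoter in the reference table, 5 held GTTAAT, a share of 16.1%, against 5.79% of all 14452 promoters. They were Slc22a6, Slc22a8, Slc34a1, Slc7a7 and Umod. TGTTCT was in 8 of the 31, or 25.8%, against 14.7% of all promoters. A match describes the letters and is not evidence of binding, and the Slco1a1 and Slc7a8 windows, with neither motif, say nothing about either factor.

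Among the proximal carriers of phosphate, sulfate, glucose and carboxylates, 7 of 7 passed, with a median distance of 0.53. Slc5a12, a sodium-coupled lactate carrier, was the widest. Its signals in A/J were 12.34, 12.26 and 12.27, against 11.25, 11.19 and 11.30 in C57BL/6J. AKR/J gave 12.22, 12.26 and 12.16, C3HeB/FeJ 11.95, 12.17 and 11.91, 129S2 12.09, 11.82 and 11.97 and DBA2/J 11.59, 11.52 and 11.58. C57BL/6J lay below every array of the other strains, and DBA2/J below the remaining 4. The means were 12.29 ± 0.0422 in A/J and 11.25 ± 0.0545 in C57BL/6J (SD, n = 3 each), 1.04 apart (2.06-fold, SE 0.0739, limma adjusted p = 1.32e-08). A second Slc5a12 probe set gave 1.32 for the same pair of strains.

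AKR/J was higher than the mean of the other 5 strains for 5 of these 7 genes. Of these 5 calls, that of Slc5a1 was lost when any of the 3 AKR/J arrays was left out (adjusted p of 0.0674 to 0.119) and that of Slc34a1 without AKR/J replicate 1 (0.0965) or 3 (0.0925). Slc34a3, a sodium-phosphate cotransporter, averaged 10.34 in AKR/J and 9.76 in the others, and Slc5a2, the glucose carrier SGLT2 of the early proximal tubule, averaged 11.74 in AKR/J and 11.31 in the others. Slc34a1, the main phosphate cotransporter, differed little: 13.87 in AKR/J and 13.63 in 129S2, the extremes. Slc13a3, a dicarboxylate carrier, ran the other way, at 11.67 in AKR/J and 11.99 in the others (adjusted p = 0.00116). Slc5a1, the glucose carrier SGLT1 of the late proximal tubule, was lowest in A/J, at 9.20 against 9.64 in the others, and Slc13a1, the sulfate carrier, was highest in 129S2, at 12.75 against 12.37.

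Of the 8 amino acid carriers, 7 passed, with a median distance of 0.61. Slc6a19 encodes the neutral amino acid carrier B0AT1. A/J gave 11.95, 11.62 and 11.65 for it, against 10.77, 10.53 and 10.66 in DBA2/J. The values were 11.71, 11.71 and 11.54 in AKR/J, 11.49, 11.58 and 11.53 in 129S2, 11.31, 11.49 and 11.17 in C3HeB/FeJ and 10.93, 11.00 and 10.89 in C57BL/6J. DBA2/J was below all other arrays and C57BL/6J was next, while A/J and AKR/J overlapped. The means were 11.74 ± 0.187 in A/J and 10.65 ± 0.120 in DBA2/J, 1.08 apart (SE 0.0939, adjusted p = 1.37e-07), and a second probe set gave 1.00 for that pair.

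Slc7a8 encodes LAT2, a basolateral exchanger of neutral amino acids, and its order of strains was different. C57BL/6J gave 9.44, 9.73 and 9.58, against 8.47, 8.58 and 8.29 in C3HeB/FeJ. DBA2/J had 9.12, 9.08 and 9.27, A/J 8.99, 8.85 and 8.81, AKR/J 8.74, 8.50 and 8.57 and 129S2 8.73, 8.32 and 8.57. C57BL/6J stood above all other arrays, DBA2/J came next without overlap, and 129S2, AKR/J and C3HeB/FeJ overlapped. The means were 9.59 ± 0.146 in C57BL/6J and 8.45 ± 0.148 in C3HeB/FeJ, 1.14 apart (SE 0.105, adjusted p = 4.57e-07). Slc7a9 and Slc3a1 are the light and heavy subunits of the cystine carrier. Slc7a9 averaged 12.24 in A/J and 11.48 in DBA2/J, while Slc3a1 averaged 12.12 in C3HeB/FeJ and 11.95 in DBA2/J; the Slc3a1 call was lost when some single arrays were left out, such as DBA2/J replicate 2 (adjusted p = 0.089). Slc7a7, the basolateral carrier y+LAT1, averaged 11.80 in A/J and 11.18 in C57BL/6J. Slc6a18, a neutral amino acid carrier of the brush border, averaged 11.47 in 129S2 and 11.07 in A/J. Slc7a13, a carrier of acidic amino acids, was bright and nearly level on its brightest probe set, at 13.60 in AKR/J and 13.41 in A/J (adjusted p = 0.0273). A second probe set, averaging 10.32, was not level. Its strain means lay 1.06 apart, at 10.87 in AKR/J and 9.81 in 129S2.

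The organic anion and cation carriers take up drugs and metabolites from blood and pass them into urine, and 9 of 9 passed, with a median distance of 0.44. Slc22a7, which encodes the anion carrier OAT2, was the widest transport gene in kidney. DBA2/J gave 12.00, 11.88 and 11.80, against 10.37, 10.54 and 10.59 in 129S2. AKR/J gave 11.96, 11.89 and 11.82, C57BL/6J 11.70, 11.69 and 11.82, C3HeB/FeJ 11.33, 11.16 and 11.20 and A/J 11.26, 11.16 and 11.27. Every 129S2 array lay below every other, and DBA2/J and AKR/J overlapped. The means were 11.89 ± 0.102 in DBA2/J and 10.50 ± 0.118 in 129S2, 1.39 apart (2.62-fold, SE 0.0739, adjusted p = 2.14e-10).

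Slc22a8, which encodes the anion carrier OAT3, placed the same pair of strains in the opposite order. Its signals were 12.33, 12.26 and 12.27 in 129S2, against 11.12, 10.89 and 11.35 in DBA2/J. C3HeB/FeJ had 11.67, 11.89 and 11.80, A/J 11.68, 11.75 and 11.69, C57BL/6J 11.59, 11.55 and 11.75 and AKR/J 11.49, 11.42 and 11.64. 129S2 stood above and DBA2/J below all other arrays. The means were 12.29 ± 0.0356 in 129S2 and 11.12 ± 0.228 in DBA2/J, 1.16 apart (2.24-fold, SE 0.0947, adjusted p = 7.49e-07), and a second, dimmer probe set gave 1.66.

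Slco1a1, a carrier of bile salts and steroid conjugates, was highest in DBA2/J, at 12.84, 13.14 and 12.75, against 11.80, 11.57 and 11.60 in C57BL/6J. C3HeB/FeJ gave 12.64, 12.41 and 12.56, AKR/J 12.15, 12.56 and 12.17, 129S2 11.86, 12.11 and 11.88 and A/J 11.96, 11.88 and 11.85. DBA2/J was above every other array, and C57BL/6J below every other. The means were 12.91 ± 0.204 in DBA2/J and 11.66 ± 0.121 in C57BL/6J, 1.25 apart (2.38-fold, SE 0.115, adjusted p = 6.49e-07). Slco1a1 responds to androgen in mouse kidney. The mean over a list of 4 other androgen-responsive kidney genes was also highest in DBA2/J, at 13.54, and lowest in 129S2, at 12.65. Gusb, the lysosomal beta-glucuronidase, was the widest of the 4 and averaged 11.48 ± 0.574 in DBA2/J and 8.65 ± 0.0529 in 129S2. Odc1, the next widest, averaged 13.60 in DBA2/J, 12.70 in 129S2 and 12.48 in A/J, its lowest strain. The order of the list mean thus did not hold for each member. The part of androgen in these differences was not tested.

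In the remaining organic ion carriers the distances were smaller. Slc22a12, the urate carrier, averaged 11.74 in C57BL/6J and 10.80 in DBA2/J. Slc22a6, the anion carrier OAT1, had a mean of 12.44 in AKR/J, against 12.01 in A/J, but its second probe set differed by -0.35 for that pair, the only one of 21 further probe sets averaging at least 8 that ran the other way. Slc22a2, Slc17a3, Slc17a1 and Slc47a1 had distances of 0.40, 0.26, 0.18 and 0.44. Slc17a1 no longer passed with arrays centred on their medians (adjusted p = 0.0575).

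**Figure D2:**
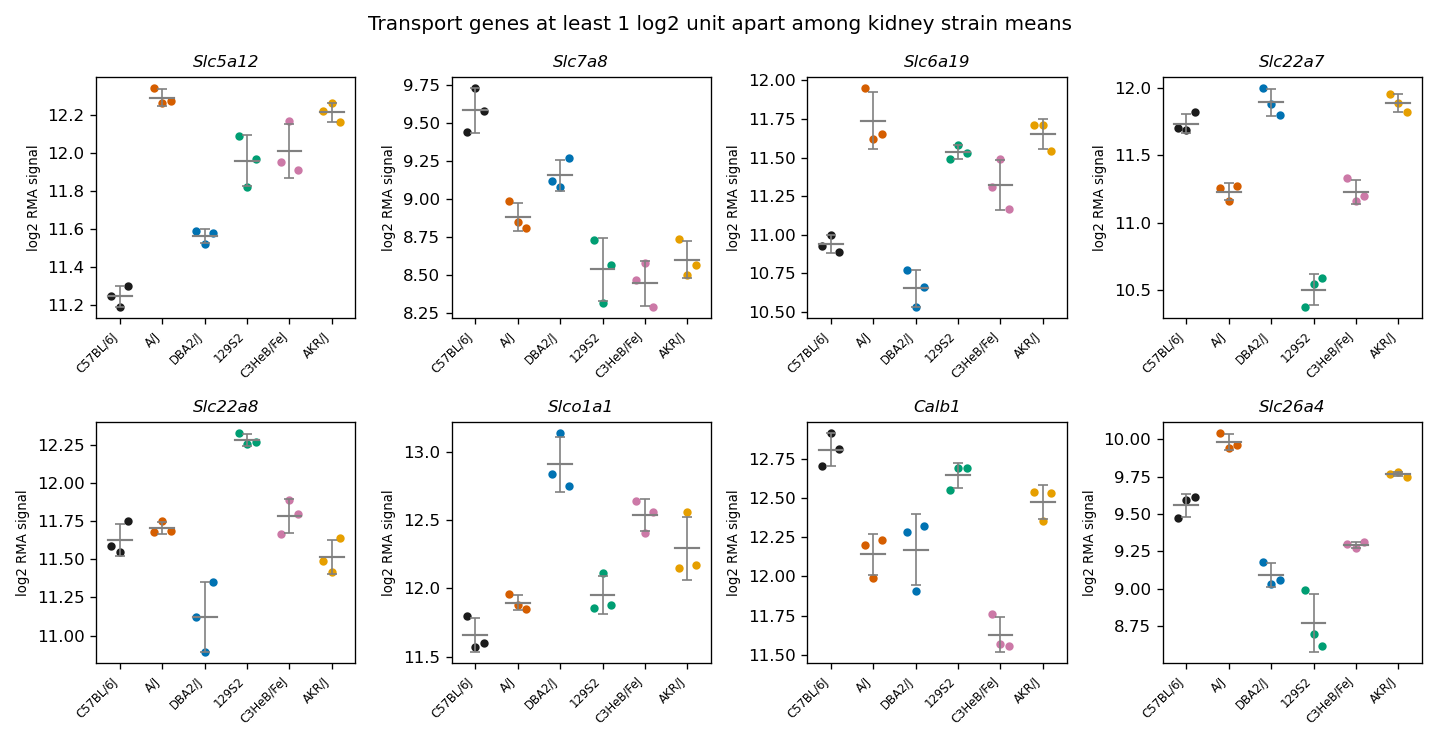
Log2 signal of the 8 transport genes with kidney strain means at least 1 log2 unit apart; points are single arrays, grey lines the strain mean and bars the SD (n = 3). Slc22a7 is lowest in 129S2 and Slc22a8 is highest there.

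For acid, bicarbonate and water, 3 of 3 genes passed, and all 3 were highest in 129S2. Slc9a3, the sodium-proton exchanger NHE3, gave 10.39, 10.27 and 10.46 in 129S2, against 9.91, 9.91 and 9.84 in C57BL/6J. A/J gave 10.28, 10.31 and 10.41, AKR/J 10.18, 10.26 and 10.13, C3HeB/FeJ 10.04, 10.13 and 10.22 and DBA2/J 9.93, 10.05 and 9.94. C57BL/6J lay below all other arrays, 129S2 and A/J overlapped, and the extreme means were 0.48 apart (adjusted p = 4.28e-05). Aqp1, the water channel of the proximal tubule, averaged 12.74 in 129S2 and 12.34 in C57BL/6J. Slc4a4, the basolateral bicarbonate cotransporter, averaged 12.45 in 129S2, 12.44 in A/J and 12.17 in C3HeB/FeJ (F test adjusted p = 0.032). In C3HeB/FeJ, 1 array lay at 11.89. Against the other 5 strains Slc4a4 was not called in 129S2 (contrast adjusted p = 0.145). Other bright Slc4a4 probe sets differed by 0.92, 0.61 and 0.23 for 129S2 and C3HeB/FeJ. The last of these averaged 11.79 and was highest in AKR/J, at 12.06, with 129S2 at 11.69. Of the endocytic receptors, Cubn, which encodes cubilin, averaged 12.28 in A/J and 11.86 in C3HeB/FeJ, 0.42 apart (adjusted p = 0.000408), with array values of 12.24, 12.34 and 12.27 in A/J, against 11.86, 11.92 and 11.80 in C3HeB/FeJ. The other values were 12.18, 12.23 and 12.28 in 129S2, 12.14, 11.92 and 12.06 in DBA2/J, 12.08, 12.08 and 12.03 in AKR/J and 12.03, 12.14 and 12.20 in C57BL/6J, and A/J and 129S2 overlapped.

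All 3 genes of the thick ascending limb passed, with a median distance of 0.62. Kcnj1, the potassium channel ROMK, gave 10.75, 10.93 and 10.96 in C57BL/6J, against 10.05, 10.14 and 9.76 in C3HeB/FeJ, 0.89 apart (adjusted p = 5.98e-06). 129S2 gave 10.66, 10.43 and 10.55, A/J 10.36, 10.34 and 10.44, AKR/J 10.39, 10.27 and 10.29 and DBA2/J 10.24, 9.96 and 10.01. C57BL/6J stood above all other arrays, and C3HeB/FeJ and DBA2/J overlapped. Slc12a1, the cotransporter NKCC2, averaged 13.11 in 129S2 and 12.49 in C3HeB/FeJ. Umod averaged 14.13 in 129S2 and 13.75 in DBA2/J. Set against the mean of the other 5 strains, all 3 were higher in 129S2 and all 3 were lower in both C3HeB/FeJ and DBA2/J. The Umod call in C3HeB/FeJ was lost without C3HeB/FeJ replicate 1 (adjusted p = 0.186) or 2 (0.0587), and the Slc12a1 call in DBA2/J with the mean of all probe sets (0.577). The mean over the 3 genes was 12.66 in C57BL/6J, 12.60 in 129S2, 12.48 in A/J, 12.38 in AKR/J, 12.17 in DBA2/J and 12.10 in C3HeB/FeJ.

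All 3 measured genes of the distal convoluted and connecting tubule were highest in C57BL/6J, followed by 129S2 in each. Calb1 encodes calbindin, the calcium-binding protein of these cells. C57BL/6J gave 12.70, 12.91 and 12.81, against 11.76, 11.57 and 11.56 in C3HeB/FeJ. The signals were 12.55, 12.69 and 12.69 in 129S2, 12.54, 12.35 and 12.53 in AKR/J, 12.28, 11.91 and 12.32 in DBA2/J and 12.20, 11.99 and 12.23 in A/J. C57BL/6J lay above and C3HeB/FeJ below all other arrays. The means were 12.81 ± 0.104 in C57BL/6J and 11.63 ± 0.114 in C3HeB/FeJ, 1.18 apart (2.26-fold, SE 0.102, adjusted p = 4.65e-07), and the other 3 probe sets gave 1.42 to 1.57. Slc12a3, the thiazide-sensitive cotransporter, had a mean of 12.12 in C57BL/6J, against 11.26 in A/J. Trpm6, a magnesium channel, had 8.37 in C57BL/6J, against 7.49 in A/J. Parvalbumin, Pvalb, a calcium-binding protein of the distal convoluted tubule that is not on the list, averaged 10.41 in 129S2 and 8.41 in DBA2/J. Unlike the 3 listed genes, Pvalb was not highest in C57BL/6J. It averaged 8.94 there, below AKR/J (10.39), C3HeB/FeJ (10.15) and A/J (9.89).

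The 5 genes of collecting duct principal cells passed, with a median distance of 0.72. Aqp3, the basolateral water channel, gave 10.00, 10.03 and 10.09 in AKR/J, against 9.19, 9.04 and 9.23 in DBA2/J. 129S2 gave 9.60, 9.90 and 9.68, A/J 9.67, 9.68 and 9.72, C57BL/6J 9.44, 9.47 and 9.48 and C3HeB/FeJ 9.53, 9.26 and 9.23. AKR/J stood above all other arrays, and the means were 10.04 ± 0.0449 in AKR/J and 9.15 ± 0.103 in DBA2/J, 0.88 apart (adjusted p = 1.4e-06). Aqp2, the water channel regulated by vasopressin, averaged 10.79 in AKR/J and 10.00 in DBA2/J. The alpha subunit of the epithelial sodium channel, Scnn1a, averaged 8.87 in C57BL/6J and 8.14 in C3HeB/FeJ. The beta and gamma subunits were lowest in DBA2/J: Scnn1b at 7.14, against 7.56 in the others, and Scnn1g at 8.04, against 8.46. All 5 genes were lower in DBA2/J than in the mean of the other 5 strains, by 0.57 for Aqp2 (means 10.00 and 10.57).

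Slc26a4 encodes pendrin, the chloride-bicarbonate exchanger of intercalated cells. A/J gave 10.04, 9.94 and 9.96, against 8.99, 8.70 and 8.62 in 129S2. AKR/J gave 9.77, 9.78 and 9.75, C57BL/6J 9.47, 9.59 and 9.61, C3HeB/FeJ 9.30, 9.27 and 9.31 and DBA2/J 9.18, 9.03 and 9.06. Each strain lay above the next with no overlap at any step. The means were 9.98 ± 0.0534 in A/J and 8.77 ± 0.193 in 129S2, 1.22 apart (2.32-fold, SE 0.0777, adjusted p = 5.69e-09). The mean over 5 intercalated cell markers (Atp6v1b1, Atp6v0a4, Foxi1, Slc4a1 and Aqp6) did not follow that order. It was highest in C57BL/6J, at 8.64, and lowest in DBA2/J, at 8.21, with 8.61 in 129S2 and 8.52 in A/J. Aqp6 and Slc4a1 were the widest of the 5, and Slc4a1 is also among the red cell markers. The list does not measure the number of cells that express Slc26a4.

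**Figure D3:**
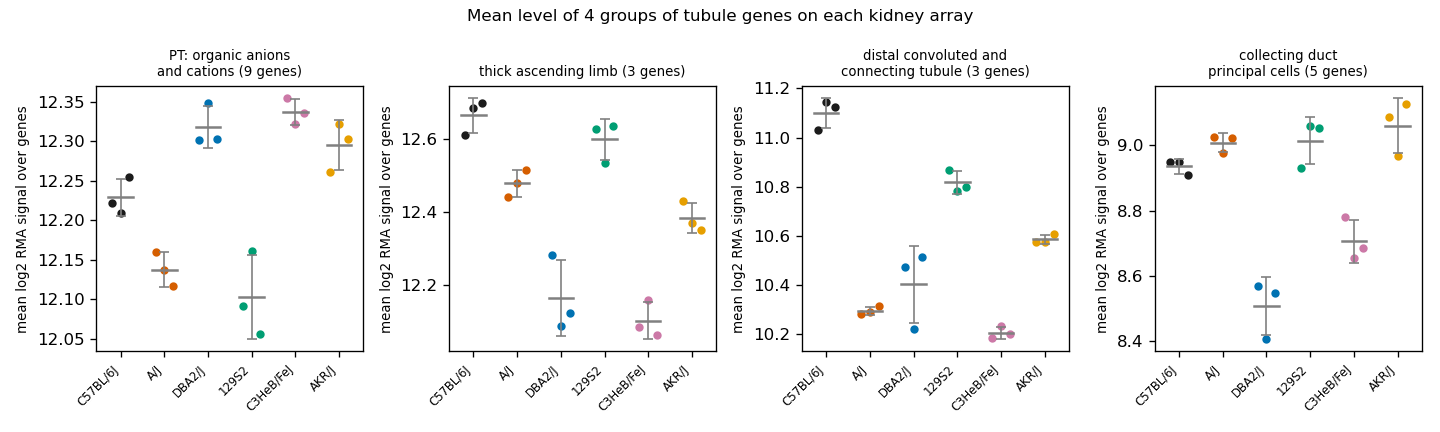
Mean log2 signal over the genes of 4 groups on each kidney array (points), with the strain mean (grey line) and SD (bar, n = 3). The collecting duct mean is lowest in DBA2/J, at 8.51, and the distal tubule mean is highest in C57BL/6J, at 11.10.

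Each strain was then set against the mean of the other 5. The 6 comparisons share arrays and are not compared with each other. In DBA2/J, 22 of the 41 were lower and 7 higher, shares of 53.7% and 17.1%, where 11.6% of all genes were lower and 12.4% higher. Of genes averaging at least 8, 13.8% were lower and 23.6% higher in DBA2/J. In either direction, 29 of the 41 were called, against 24.0% of all genes and 37.4% of those averaging at least 8. The 7 higher genes were 6 organic ion carriers and Slc7a8. The largest decreases were Slc6a19, by 0.79 (10.65 in DBA2/J and 11.44 in the others, adjusted p = 3.32e-07), and Slc22a8, by 0.67 (11.12 in DBA2/J and 11.79 in the others). The DBA2/J array numbered 2 was the lowest of the 18 for 11 of the 41 genes, more than any other array: Slc34a3, Slc13a1, Slc3a1, Slc7a9, Slc7a7, Slc6a19, Slc22a8, Lrp2, Aqp2, Aqp3 and Scnn1b. Without it 24 genes were called in DBA2/J, in place of 29. The calls lost were those of Slc22a6 (adjusted p = 0.0703) and Slc17a3 (0.139), both among the 6 higher organic ion carriers, and of Slc5a2 (0.136), Slc3a1 (0.236), Slc7a7 (0.508) and Lrp2 (0.188).

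In 129S2, 16 genes were higher and 9 lower (39.0% and 22.0%), against 14.5% and 16.2% of all genes and 13.1% and 30.1% of genes averaging at least 8. The higher genes included all 3 of the thick ascending limb and 3 of the 5 of the collecting duct, and the lower ones 5 of the 9 organic ion carriers. Without the array whose labels conflict, 17 of the 41 were called in 129S2, in place of 25. That ended the calls of Kcnj1 (adjusted p = 0.0912) and Umod (0.061) in the thick ascending limb, of all 3 collecting duct genes, Aqp2 (0.0814), Aqp3 (0.0551) and Scnn1a (0.0632), and of the lower organic ion carriers Slc22a6 (0.0669) and Slco1a1 (0.07). With all 129S2 arrays, in either direction 30.7% of all genes and 43.3% of those averaging at least 8 were called. In C57BL/6J, 12 were higher and 9 lower (29.3% and 22.0%), against 11.0% and 10.0% of all genes and 15.0% and 16.9% of genes averaging at least 8. Called in either direction were 21 of the 41, 21.0% of all genes and 32.0% of those averaging at least 8. The C57BL/6J calls of Slc13a3 and Aqp2 were each lost on leaving out any of 14 of the 18 single arrays. That of Slc26a4 was lost on leaving out any of 13. Slc12a3 was higher by 0.68, Trpm6 by 0.63 and Calb1 by 0.59.

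In A/J, 11 genes were higher and 7 lower (26.8% and 17.1%), against 7.15% and 6.76% of all genes and 11.6% and 10.3% of genes averaging at least 8. The 18 calls stand beside 13.9% of all genes and 21.9% of the brighter ones in either direction. C3HeB/FeJ had 4 higher and 12 lower (9.76% and 29.3%), against 6.74% and 7.13% of all genes and 10.8% of brighter genes in each direction. That made 16 calls, beside 13.9% of all genes and 21.6% of the brighter ones. All 4 higher genes were organic ion carriers: Slc22a2, Slc22a6, Slc47a1 and Slco1a1. The Slc22a2 call (adjusted p = 0.0437) was lost with arrays centred on their medians (0.0748) and on leaving out any of 12 of the 18 single arrays, and that of Slco1a1 without C3HeB/FeJ replicate 1 (0.0547). With all arrays of the series in one fit, those of Slc22a2 (0.363), Slc22a6 (0.0547) and Slc47a1 (0.533) were lost. AKR/J had 14 higher and 3 lower (34.1% and 7.32%), against 8.48% and 5.45% of all genes and 14.3% and 7.49% of genes averaging at least 8. In either direction 13.9% of all genes and 21.8% of the brighter ones were called. The AKR/J count of 17 fell to 10 when AKR/J replicate 3 was left out.

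Genes of the same pathways outside the list also differed, and their counts stand beside the 46.1% of all genes and 68.3% of genes averaging at least 8 that passed in kidney. Among 24 other proximal carriers, 20 passed: Slco4c1, an organic anion carrier, averaged 8.68 ± 0.212 in A/J and 4.56 ± 0.409 in DBA2/J, and Abcb1b, a drug efflux pump, averaged 8.08 ± 0.282 in 129S2 and 4.81 ± 0.26 in C57BL/6J. Of 9 brush border enzymes, 9 passed, and Mep1a, which encodes a subunit of the protease meprin, averaged 13.47 ± 0.0582 in C57BL/6J and 9.57 ± 0.23 in C3HeB/FeJ. Enpep, glutamyl aminopeptidase, averaged 12.56 in 129S2 and 11.22 in DBA2/J. All 4 partners of the endocytic receptors passed. Among 17 other channels and claudins, 14 passed. Aqp4, a basolateral water channel, averaged 10.11 ± 0.121 in DBA2/J and 7.57 ± 0.251 in A/J, while the listed channels Aqp2 and Aqp3 were lowest in DBA2/J. Cldn8, a claudin of the distal nephron, averaged 10.61 in C57BL/6J and 9.76 in AKR/J. Of 21 genes listed as hormone receptors and kinases of tubule transport, 17 passed. That list also counts genes that are neither, such as Pvalb and Cyp24a1. Cyp24a1, the vitamin D hydroxylase, averaged 9.79 ± 0.496 in 129S2 and 7.98 ± 0.636 in C3HeB/FeJ. Of 8 pumps 6 passed. Of 10 transcription factors 6 passed, which lies between the 2 background shares.

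Markers of other cell types were measured on the same kidney arrays, where again 46.1% of all genes and 68.3% of those averaging at least 8 passed. The mean over 6 macrophage genes was 8.16 in C57BL/6J and 7.38 in 129S2, and over 5 stromal genes 9.06 in C57BL/6J and 8.36 in 129S2; 6 of 6 and 5 of 5 passed. Podocyte markers averaged 6.93 in C57BL/6J and 6.62 in DBA2/J. Adipose genes averaged 7.36 in C57BL/6J and 6.58 ± 0.829 in C3HeB/FeJ, with array means of 5.62 to 7.55. Tubule injury genes averaged 6.85 in A/J and 6.18 in DBA2/J. Of 5 hepatocyte genes 2 passed, with list means of 7.28 in A/J and 6.24 in DBA2/J, and of 5 endothelial genes and of 3 red cell genes 1 passed in each, all below 46.1%. Lymphocyte genes averaged between 5.52 and 5.92 on all kidney arrays. Adrenal cortex genes stayed between 4.84 and 5.25 and alveolar genes between 5.04 and 5.33 on every kidney array. The part of these markers in the transport gene differences was not tested.

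Liver and kidney were compared for the 7 transport genes averaging at least 8 in liver. All 7 differed among strains in liver, where 31.6% of all genes and 55.2% of genes that bright did. For all 7, strain differences in kidney and liver were unequal (interaction F test, animal as random block), where 36.9% of all genes and 57.3% of bright genes were. Slc3a1, the heavy subunit of the cystine carrier, had the smallest interaction p of the 7. In liver it gave 9.04, 9.35 and 9.55 in DBA2/J, against 7.65, 7.65 and 7.56 in 129S2, 1.69 apart (adjusted p = 8.66e-07). In kidney its strain means lay 0.17 apart, and the interaction had an adjusted p of 1.34e-09.

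Slc22a7 was lowest in 129S2 in both tissues, yet the leading strain differed. In liver AKR/J gave 11.18, 10.94 and 11.29, against 8.45, 8.44 and 8.58 in 129S2, 2.65 apart. DBA2/J, the kidney leader, averaged 10.16 in liver (interaction adjusted p = 4.38e-09). Slc47a1, the cation extruder MATE1, averaged 11.05 in A/J and 9.68 in AKR/J in liver, 1.37 apart, and was also lowest in AKR/J in kidney, where the distance was 0.44. Slco1a1 lay 1.25 apart in kidney and 0.40 in liver. DBA2/J had the highest mean in both, but in liver its arrays overlapped with those of other strains. The liver means were 11.62 in DBA2/J, 11.60 in AKR/J, 11.57 in 129S2 and 11.52 in C3HeB/FeJ. The interaction calls of Slc17a3 and Aqp1, at adjusted p of 0.0418 and 0.0367, were lost without the animal block (0.0596 and 0.0526). Leaving out some single arrays also ended them, such as 129S2 liver replicate 2 for Slc17a3 (0.0885) and AKR/J kidney replicate 3 for Aqp1 (0.0928). With all arrays of the series in one fit, the interactions of Slc17a3 (0.193), Aqp1 (0.288) and Slc47a1 (0.0989) were lost.

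**Figure D4:**
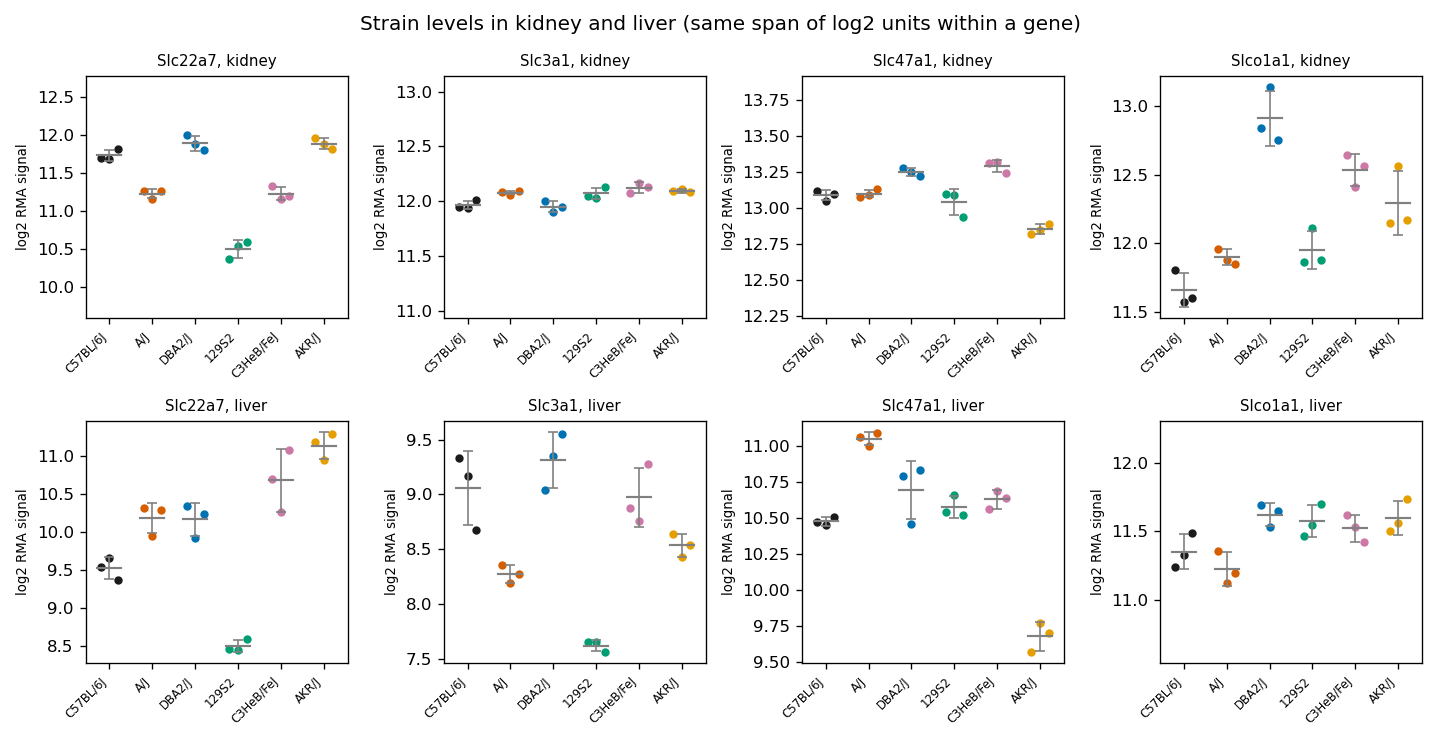
Log2 signal of Slc22a7, Slc3a1, Slc47a1 and Slco1a1 in kidney (top) and liver (bottom); points are arrays, grey lines strain means, bars SD (n = 3), and each gene has the same axis span in both tissues. Slc3a1 strain means lie 0.17 apart in kidney and 1.69 apart in liver.

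Lung was compared for 8 transport genes. Of these, 7 differed among strains in lung, where 32.5% of all genes and 41.5% of genes that bright did, and Aqp1 did not (adjusted p = 0.0843). For all 8 the strain differences in kidney and lung were unequal, where 37.3% of all genes and 47.5% of bright genes were. The Slc7a7 interaction (F test adjusted p = 0.0417) was lost when some single arrays were left out. Examples are A/J lung replicate 3 (0.0725) and AKR/J kidney replicate 3 (0.0732). With all arrays of the series in one fit it was 0.856. Trpm6 and Scnn1b averaged under 8 in kidney, at 7.84 and 7.49.

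The beta and gamma subunits of the epithelial sodium channel had other orders in lung, where the channel clears alveolar fluid. Scnn1b in lung gave 10.17, 10.38 and 10.29 in DBA2/J, against 9.90, 9.79 and 9.41 in C3HeB/FeJ, 0.58 apart (adjusted p = 0.00594). DBA2/J was thus highest in lung and lowest in kidney (interaction adjusted p = 4.5e-06). Without C3HeB/FeJ lung replicate 3, the distance was 0.44, the adjusted p 0.00163 and DBA2/J still highest. Scnn1g had a lung mean of 11.25 in AKR/J, against 10.60 in A/J, and DBA2/J, lowest in kidney, was second at 11.04. Scnn1a averaged 10.86 in AKR/J and 10.52 in 129S2 in lung (adjusted p = 0.0308). Its call was lost with arrays centred on their medians (F test adjusted p = 0.0557). It was also lost without some single lung arrays, such as 129S2 replicate 3 (0.0733).

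Lrp2, which did not pass in kidney, differed in lung: AKR/J gave 8.98, 8.95 and 9.19, against 8.09, 8.25 and 8.09 in C57BL/6J, 0.90 apart (adjusted p = 0.000259). Slc4a4 averaged 8.91 in 129S2 and 8.07 in C57BL/6J. Trpm6 averaged 9.92 in C57BL/6J and 9.63 in C3HeB/FeJ in lung, and its call was lost without C3HeB/FeJ replicate 3 (adjusted p = 0.0829), while that of Aqp1 was gained (0.00953). The Trpm6 call was also lost without some other single lung arrays, such as C57BL/6J replicate 2 (F test adjusted p = 0.0682). With all arrays of the series in one fit its adjusted p was 0.086. Slc7a7 averaged 8.59 in A/J and 8.32 in C57BL/6J (adjusted p = 0.0356). Without C3HeB/FeJ replicate 3, C3HeB/FeJ led, at 8.63, 0.30 above C57BL/6J (adjusted p = 0.0222). The Slc7a7 call was lost without some other single lung arrays, such as C57BL/6J replicate 4 (F test adjusted p = 0.096). It was also lost with all arrays of the series in one fit (0.906). Without C3HeB/FeJ lung replicate 3, the lung calls of Lrp2, Slc4a4, Scnn1a and Scnn1g and their highest and lowest strains were as given, and all 8 interactions passed.

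**Figure D5:**
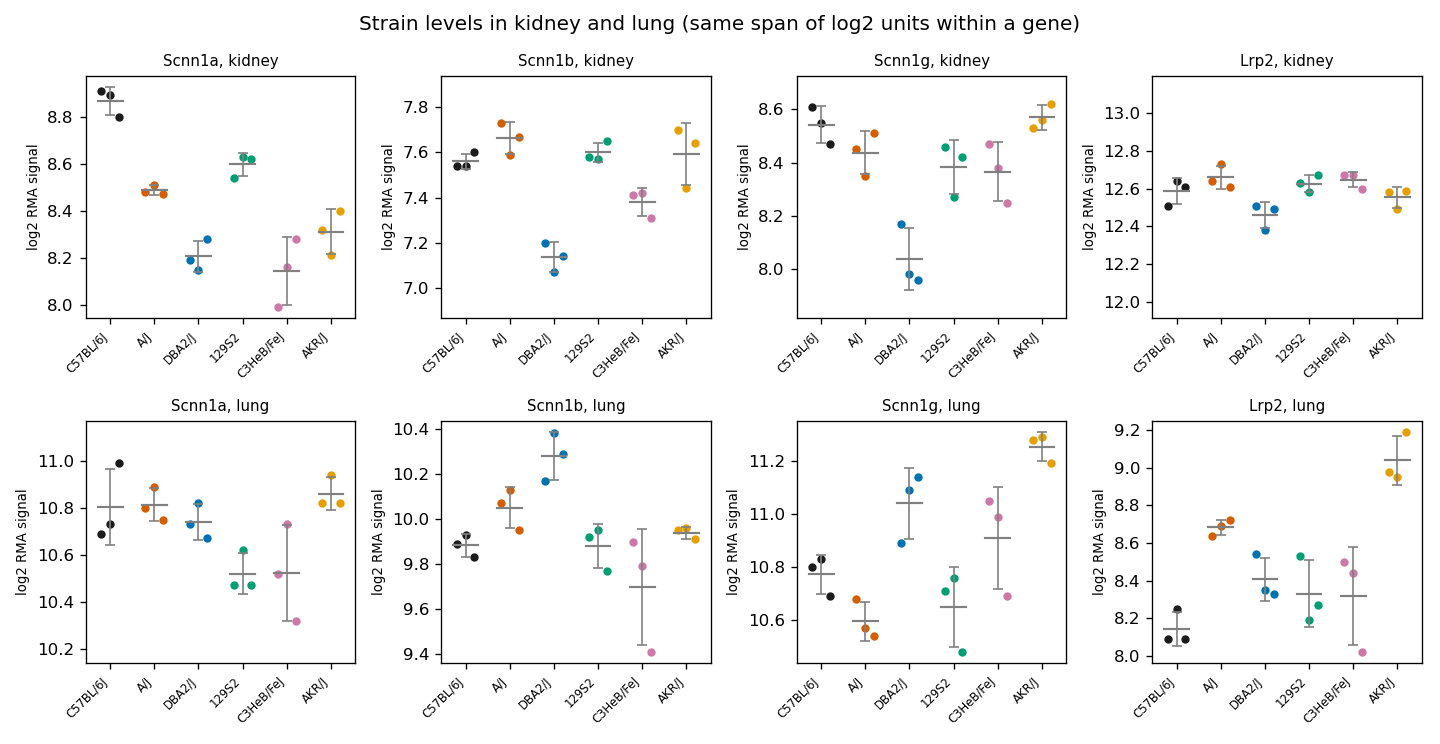
Log2 signal of the 3 epithelial sodium channel subunits and Lrp2 in kidney (top) and lung (bottom); points are arrays, grey lines strain means, bars SD (n = 3), and each gene has the same axis span in both tissues. For Scnn1b, DBA2/J is lowest in kidney, at 7.14, and highest in lung, at 10.28.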

How the data were processed

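RNA of whole tissues was hybridised to Affymetrix mouse expression arrays, 1 per animal and tissue by the titles. The authors deposited log2 values per probe set, made by RMA per the submitters' processing notes; no version is named there. Background correction and scaling between arrays were thus done before deposit. Of 45101 probe sets, 64 were controls, 932 named more than 1 gene and 9160 named none, and these were not used; the 34945 others covered 18193 genes, and the brightest probe set stood for each gene. Groups and animal numbers were taken from titles. In 4 arrays of 129S2 (3 brain, 1 kidney) the titles and another label give different numbers, and a protocol speaks of pools where titles name single animals. Whether an array holds 1 animal or a pool is thus not settled. The p-values set strain differences against the spread between these arrays.

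Strain means were fitted within each tissue with limma 3.58.1 (R 4.3.3): a moderated F test over 6 strains, contrasts of each strain with the mean of the other 5, and strain by tissue interactions with the animal as random block, each with Benjamini-Hochberg adjustment over all genes and a threshold of 0.05. Fits were tested on simulated data. Values for all arrays are given for genes past the threshold with strain means at least 1 log2 unit apart and, in segments with none, for the widest gene; from pathway lists the 2 widest passing genes were considered. Alternatives were an intensity trend with robust prior, other probe set rules, a filter at a mean of 6, median centring, a fit of all arrays, replicate blocks and each array left out. Numbers shared between strains did not pair kidney arrays (median correlation of deviations 0.058 over 26 pairs, 8 of them above 0.1); kidney and liver arrays of 1 animal, paired by title, had a median of 0.105 over 18 pairs, and kidney and lung arrays 0.051 over 14. The genes and lists were chosen with earlier results of these data known.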

Additional observations from a re-analysis of the deposited data

Results flagged for a closer look

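For 15 comparisons the strain differences in kidney were unequal to those in another tissue, by the interaction F test (limma, adjusted over all genes). Against liver, the adjusted p was 1.34e-09 for Slc3a1, 4.38e-09 for Slc22a7, 9.32e-09 for Slc47a1 and 1.18e-05 for Slco1a1. It was 0.0103 for Slc4a4, 0.0367 for Aqp1 and 0.0418 for Slc17a3. Against lung, it was 4.5e-06 for Scnn1b, 8.71e-06 for Scnn1g, 1.29e-05 for Slc4a4 and 1.58e-05 for Lrp2. It was 2.87e-05 for Trpm6, 9.36e-05 for Scnn1a, 0.00169 for Aqp1 and 0.0417 for Slc7a7. The calls of Slc7a7 against lung and of Slc17a3 and Aqp1 against liver were lost when some single arrays were left out, as given above. Interactions of this kind passed for 36.9% of all genes against liver and for 37.3% against lung.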

How the results depend on the processing

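No count given above reversed, nor did the distance of any of the 12 genes given on all kidney arrays. These 12 genes kept their F test call in every alternative run. Distances of other genes are not covered by this, and that of Slc22a6 ran the other way on its second probe set, as given above. Among calls of a strain against the other 5, that of Slc22a6 in A/J changed sign with the mean of all probe sets (difference 0.02, adjusted p = 0.814, in place of -0.25). That probe set rule also ended the DBA2/J calls of Slc12a1 (0.577), Slc12a3 (0.361), Lrp2 (0.616), Slc9a3 (0.189) and Slc13a1 (0.052), and gained 3, for 27 in place of 29; in the other strains it ended 1 to 3. With genes averaging at least 7 taken as bright, more genes entered the liver comparison. Then 11 differed in liver, in place of 7, and 12 had an interaction with kidney, in place of 7. The share of all genes called at that level is not given, so these counts have no background beside them. With all arrays of the series in one fit, 4 interactions with liver and 11 AKR/J calls were left, and 9 kidney calls were lost (Slc34a1, Slc3a1, Slc7a7, Slc7a13, Slc17a1, Slc17a3, Slc47a1, Slc4a4 and Aqp1) and that of Slc7a12 gained; the cause was not tested. Lrp2 passed with an intensity trend (adjusted p = 0.00524) and with dim genes filtered (0.0317). A replicate block left 39 kidney calls and changed no count by over 1.5 times; without the animal block 5 liver and 8 lung interactions passed.

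Leaving out 1 array at a time gave 7711 to 8237 genes called in kidney, 5101 to 5716 in liver and 5136 to 6471 in lung, and 36 to 39 transport genes in kidney. Calls against the other 5 strains were 15 to 21 in C57BL/6J, 13 to 19 in A/J, 24 to 30 in DBA2/J, 17 to 26 in 129S2, 12 to 17 in C3HeB/FeJ and 10 to 18 in AKR/J. Bright genes called were 7 to 7 in liver and 4 to 7 in lung, where the lowest came without A/J replicate 1 or AKR/J replicate 2. Interactions numbered 5 to 7 with liver and 7 to 8 with lung. Under some of these, the kidney calls of Slc3a1, Slc17a1, Slc7a13, Slc4a4 and Slc34a1 were lost. Precision is limited by 3 arrays per strain, and signal over background could not be judged from the deposited values.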
